A study of Mus musculus with 2 samples.

Results

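The array described here compared hippocampal RNA of TMPyP4-treated AtrxdE2 mice with that of wild-type (WT) mice, and its members are the probes that lay above background in both channels. A probe counted as above background where its signal exceeded the mean of the blank spots by more than 2 SD in both channels. Of 23473 probes, 19040 (81.1%) met this rule, and they stand for 13845 of the 16390 named genes on the array (84.5%). The study used 2 arrays with 2 dyes each. One carried AtrxdE2 RNA and the other AtrxdE2+TMPyP4 RNA, each beside WT RNA. Both AtrxdE2 groups carry the AtrxΔE2 allele of Atrx, and the treated mice also received TMPyP4 by intraperitoneal injection at 30 mg/kg, 2 times a week from postnatal day 30 to day 90. Each RNA was a pool of 5 mice. The age at dissection, the sex, any vehicle injection of the other groups and whether one WT pool served both arrays are not stated in the labels.

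ATRX is a chromatin remodeller that, with its partner DAXX, deposits the histone variant H3.3 at repeats and at guanine-rich DNA able to fold into G-quadruplexes, and mutations of its gene cause X-linked intellectual disability. TMPyP4 is a cationic porphyrin that binds and stabilises G-quadruplexes in DNA and RNA. The hippocampus holds pyramidal and granule neurons, interneurons and glia, while the choroid plexus, an epithelium of the ventricles that makes cerebrospinal fluid, and the meninges lie next to it.

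A ratio in this text is the log2 of the treated signal over the WT signal after background correction and normalization, so that a positive value is higher in the treated pool. With 1 pool a side the ratios have no replicate and no test was made. In its place each gene was read against a 2-fold threshold. WT RNA was labelled with Cy5 and both AtrxdE2 pools with Cy3, with no dye swap, so that a dye effect and a difference between pools cannot be told apart. The Cy3 channel was the brighter one, with a median signal above blank of 79.0 against 36.0, which normalization removes. Signals printed below are before normalization, so a gene with equal signals in both channels has a ratio below 0.

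The spread of the array set the scale for each value. Over all 13845 genes the median ratio was 0.01 and the SD 0.20. The SD depended on signal. Among the nearest neighbours of a gene in signal it ran from 0.05 to 0.41, with a median of 0.21. Of the bright genes named below, it was 0.40 for Cast, Enpp2, Rdm1 and Ppia, and 0.39 for Meg3, Cnp and Mobp. For the dim genes Clic6 and Calml4 it was 0.17. An SD of 0.20 is thus too small a scale for these bright genes. Control sequences spotted 24 times each gave an SD of 0.087 between spots, although their means were -0.16 and -0.44. The WT channels of both arrays correlated at r = 0.985 across 18664 probes that were above background on both arrays, and they differed by 2-fold or more at 131 of them (0.702%), with an SD of 0.29. Each gene at either end rested on 1 probe. Ratios of dim genes are held towards 0 by the offset of 50 used in the background correction, and the ratio in the authors' deposited table, which carries no offset, is given where it put a gene past 2-fold at over 1.5 times the ratio used here.

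At the 2-fold threshold, 27 probes were higher in the treated pool (0.142% of measured probes) and 13 were lower (0.0683%). By gene, 22 genes were higher in the treated pool (0.159% of measured genes) and 4 were lower (0.0289%). Among the higher genes were genes of choroid plexus epithelium, namely Ttr, Folr1, Sostdc1, Kl, Clic6, Calml4, Kcne2, Enpp2 and Cp. Genes of meningeal fibroblasts were there too, namely Crabp2, Ogn, Mgp and Nupr1. Ttr had the largest ratio, and next to it came Ecrg4 (2.08) and Guca1a (1.96). The choroid plexus and meningeal lists used here do not hold Ecrg4 or Guca1a, and whether either tissue expresses them was not tested. The lower genes were Cast, the gene of calpastatin, which inhibits calpain proteases, Meg3, an imprinted long noncoding RNA listed on the array under its older name Gtl2, Rxrg, a retinoid X receptor, and Col6a1, a collagen chain. Above 0 lay 53.2% of genes and below 0 46.8%. In the authors' deposited table the same 13845 genes held 244 at least 2-fold higher (1.76%) and 69 at least 2-fold lower (0.498%), and by probe 367 (1.93%) and 144 (0.756%).

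**Figure D1:**
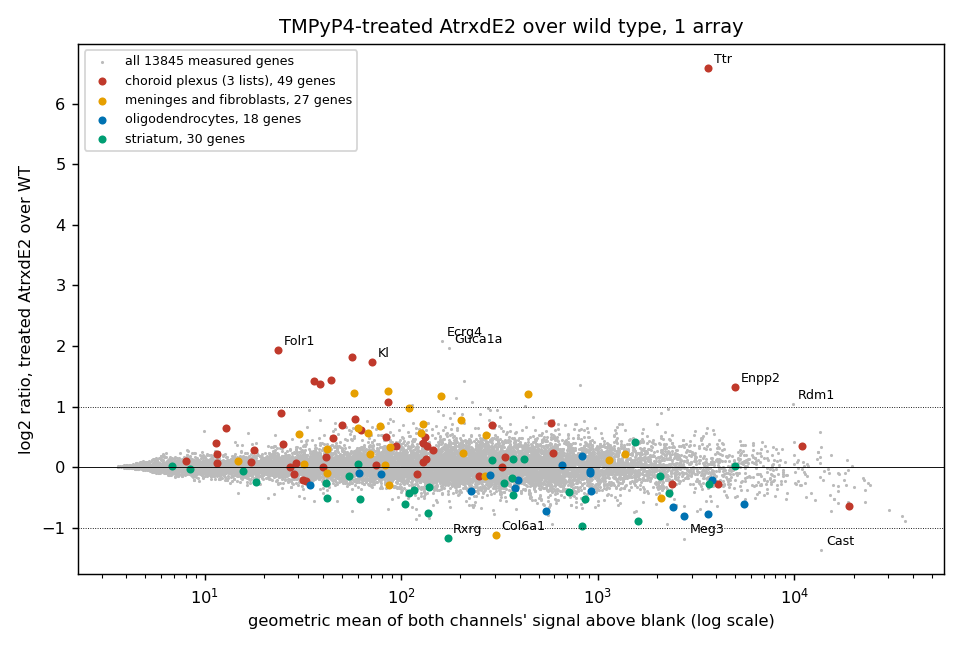
Log2 ratio of treated AtrxdE2 over WT (vertical axis) against the geometric mean of both channels' signal above blank (horizontal axis, log scale) for 13845 genes, with 4 groups of marker genes in colour and dotted lines at 2-fold. Ttr stands at 6.58, Cast at -1.37, and dim genes at the left lie close to 0, where the offset holds them.

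The gene whose allele was altered gave a signal of 54.6 in the WT pool and 71.5 in the treated pool, and of 47.4 in WT and 19.1 in untreated AtrxdE2 on the other array. The Atrx ratio was -0.36 on the treated array and -0.68 on the other array (-0.78 and -1.96 in the authors' deposited table). Atrx was below WT on both arrays, by less than 2-fold on each in the ratio used here. In the authors' deposited table it was past 2-fold on the other array only. Its treated ratio was -0.13 over the WT channel of the other array. Where its probe lies on the transcript was not tested. Daxx, which encodes the ATRX partner, was at -0.09 (0.10 with median centring). Of 29 measured genes of the Atrx, H3.3 and heterochromatin list, 13 were above 0, 16 below 0 and 0 past 2-fold, with a median of -0.03 that turned to 0.10 when arrays were centred on their median without loess. Xlr3b, an X-linked lymphocyte-regulated gene, gave signals of 40.8 in WT and 126.0 in the treated pool, against 49.9 and 433.8 in WT and untreated AtrxdE2. Its ratio was 0.30 on the treated array and 1.75 on the other array. Its neighbour Xlr4b was at -0.04 on the treated array and 0.32 on the other. Camk2a and Camk2b encode subunits of calcium/calmodulin-dependent kinase II and had ratios of 0.01 and -0.49. The WT signals of Camk2a differed between the arrays, 1117 against 2848, and its ratio over the WT channel of the other array was -1.07.

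Since TMPyP4 binds G-quadruplexes, the promoters of the genes past 2-fold are shown with the sequence motif that can fold into one. The motif searched was 4 runs of GGG separated by loops of 1 to 7 bases, on either strand, in windows from 250 bases before to 50 after the start site (RefSeq, GRCm38.p6). It occurred in 18.5% of all 32851 windows and in 29.5% of the 11095 measured genes with a window. All 4 lower genes had a window, and 3 held the motif: Cast in 1 of 4 windows, Meg3 in 1 of 2 and Col6a1 in its only window. Rxrg held none in its 2 windows. These 4 genes are too few for a share to be read. They had 9 windows, against 14130 windows for the 11095 measured genes, and a gene with more windows has more places for a match. Of the 22 higher genes only 14 (63.6%) had a window, too few for a share to be read, and the motif was found in 4 of them, Ecrg4, Kl, Nupr1 and Ddit4l. Over all measured genes, the median ratio was 0.0041 in 3276 genes with the motif and 0.0119 in 7819 without it. The 3 lower genes with the motif and the 2 higher genes with it and the largest ratios are printed 5′ to 3′ on the gene's strand, with motif bases in capitals (C runs where the G runs are on the opposite strand).

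Cast, window 2 (chr13:74807911-74808210, minus strand): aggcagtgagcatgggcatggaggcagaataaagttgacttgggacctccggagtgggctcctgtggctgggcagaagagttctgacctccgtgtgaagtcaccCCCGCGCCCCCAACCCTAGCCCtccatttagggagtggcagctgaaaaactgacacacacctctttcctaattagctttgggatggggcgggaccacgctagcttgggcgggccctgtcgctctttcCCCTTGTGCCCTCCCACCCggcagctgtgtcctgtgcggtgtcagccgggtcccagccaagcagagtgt

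Meg3, window 2 (chr12:109545148-109545447, plus strand): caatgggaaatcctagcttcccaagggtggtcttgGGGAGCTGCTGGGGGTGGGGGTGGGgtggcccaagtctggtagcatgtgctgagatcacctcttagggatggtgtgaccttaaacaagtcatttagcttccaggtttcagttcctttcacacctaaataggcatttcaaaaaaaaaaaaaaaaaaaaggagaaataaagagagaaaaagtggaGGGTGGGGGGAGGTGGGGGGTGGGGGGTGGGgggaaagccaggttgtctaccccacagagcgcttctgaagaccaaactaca

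Col6a1 (chr10:76725995-76726294, minus strand): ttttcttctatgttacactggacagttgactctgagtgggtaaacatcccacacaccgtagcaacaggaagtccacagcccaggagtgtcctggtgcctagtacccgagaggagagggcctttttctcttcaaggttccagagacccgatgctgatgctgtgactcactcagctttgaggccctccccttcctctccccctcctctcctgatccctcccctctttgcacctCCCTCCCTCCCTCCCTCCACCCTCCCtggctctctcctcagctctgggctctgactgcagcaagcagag

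Ecrg4 (chr1:43730352-43730651, plus strand): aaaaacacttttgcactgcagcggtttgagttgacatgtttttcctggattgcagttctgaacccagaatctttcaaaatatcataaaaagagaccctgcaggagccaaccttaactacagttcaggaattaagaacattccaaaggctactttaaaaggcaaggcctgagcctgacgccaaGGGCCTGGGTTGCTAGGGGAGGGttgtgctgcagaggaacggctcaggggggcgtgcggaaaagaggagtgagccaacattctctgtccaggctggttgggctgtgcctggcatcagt

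Kl (chr5:150952357-150952656, plus strand): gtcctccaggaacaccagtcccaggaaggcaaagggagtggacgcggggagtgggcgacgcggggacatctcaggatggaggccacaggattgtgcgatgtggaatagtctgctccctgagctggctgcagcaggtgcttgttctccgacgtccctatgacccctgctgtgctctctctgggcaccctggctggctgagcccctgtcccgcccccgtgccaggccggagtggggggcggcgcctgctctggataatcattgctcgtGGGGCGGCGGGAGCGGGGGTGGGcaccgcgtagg

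In Cast the motif stood at 146 to 125 and again at 19 to 1 bases before the start, both with the G runs on the opposite strand. In Meg3 it stood at 215 to 191 and at 32 to 2 bases before the start, with the G runs on the gene's strand. In Col6a1 it ran from 19 bases before the start to 7 after it, in Ecrg4 from 68 to 46 before it, and in Kl from 17 to 39 after it. A match describes the letters only. Genes named in the literature for a G-quadruplex in their promoter lay around 0: of 21 measured, 10 were above 0, 11 below 0 and 0 past 2-fold, with a median of -0.0035 (0.003 with median centring). Among them were Rb1, the retinoblastoma gene, at 0.30, Nras at -0.32 (0.39 over the WT channel of the other array), Kit at 0.14 and Myc, whose promoter quadruplex is the textbook case, at 0.03. Of 29 measured helicases and other proteins that bind G-quadruplexes, 18 were above 0, 11 below 0 and 0 past 2-fold, with a median of 0.05. Fmr1, an RNA-binding protein gene, had the largest ratio there at 0.44, and Recql5, a helicase gene, the lowest at -0.27.

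Ttr encodes transthyretin, the carrier of thyroid hormone and retinol that choroid plexus secretes into cerebrospinal fluid. Its signal was 219.4 in WT and 60791.5 in the treated pool, against 44.3 in WT and 352.6 in untreated AtrxdE2 on the other array. The treated pool stood far above the other 3 channels, and Ttr was the brightest named gene of the treated channel. The Ttr ratio was 6.58 (96.0-fold; 6.94 in the authors' deposited table), against an SD of 0.25 among its 500 nearest neighbours in signal. The untreated ratio was 1.59. Both WT channels differed from each other by 1.78 on the log2 scale after normalization, and over the WT channel of the other array the treated ratio was 8.36.

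Other secreted proteins and hormone carriers of choroid plexus followed. Sostdc1, a secreted BMP and Wnt antagonist, had signals of 10.1 in WT and 314.7 in the treated pool, and 13.9 and 14.0 in WT and untreated AtrxdE2 on the other array. Kl encodes klotho, the FGF23 co-receptor, and had signals of 15.3 and 329.0, with 18.0 and 50.9 on the other array. Enpp2, the gene of autotaxin, which makes lysophosphatidic acid, was bright in every channel, with signals of 2051 and 12205, and 2539 and 4108 on the other array. Each of these genes had the highest signal in the treated pool and a lower one in the untreated pool. The ratios were 1.82 for Sostdc1, 1.74 for Kl and 1.32 for Enpp2 (3.79 and 3.25 for the first pair in the authors' deposited table), and the untreated ratios were -0.14, 0.30 and 0.09. Cp, which encodes the copper-carrying ferroxidase ceruloplasmin, was at 1.08 in the treated (1.79 in the authors' deposited table) and 0.96 in the untreated pool. Of 12 measured genes in this list, 9 were above 0, 3 below 0 and 5 past 2-fold higher, with a median of 0.71. The 3 below 0 were Trf, the transferrin gene, at -0.28, Lcn2 at -0.12 and Rbp4 at -0.01, and each was above 0 under another scaling or over the other WT channel.

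The transporters and channels of choroid plexus had a lower median. Folr1, the folate receptor of the blood-cerebrospinal fluid barrier, had signals of 1.98 in WT and 284.2 in the treated pool, against 3.58 and 10.7 on the other array. Its ratio was 1.93 (6.0 in the authors' deposited table), and its WT signal lay below 5.00, the 95th percentile of the spots that carry no probe, so the size of the ratio rests on a WT signal that is not told apart from empty spots. Clic6, a chloride channel protein gene, had signals of 9.05 and 211.5, with 15.7 and 26.0 on the other array, and a ratio of 1.44 (3.38 in the authors' deposited table). Kcne2, a potassium channel subunit gene of the apical membrane, had signals of 7.74 and 191.2, with 9.16 and 6.94 on the other array, and a ratio of 1.38 (3.46 in the authors' deposited table). Steap1, a metalloreductase gene, was below the threshold at 0.90 (2.95 in the authors' deposited table). Of 23 measured genes, 18 were above 0, 5 below 0 and 3 past 2-fold higher, with a median of 0.23. With the local background in place of the blank level all 3 calls were lost, with Folr1 at 0.75, Clic6 at 0.53 and Kcne2 at 0.88. Atp1b1, a sodium pump subunit that neurons also express, was the lowest at -0.65.

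Among junction, transcription factor and cytoskeleton genes of choroid plexus, Calml4, a calmodulin-like gene, was at 1.42 (3.69 in the authors' deposited table) with signals of 6.67 and 193.5. Msx1 and Otx2, homeobox factors of the dorsal midline and the choroid plexus, were at 0.80 and 0.62 (1.57 and 1.14 in the authors' deposited table). Of 14 measured genes in this list, 12 were above 0, 2 below 0 and 1 past 2-fold, with a median of 0.29. That gene, Calml4, was at 0.87 with the local background. A further 3 genes were above background in the treated pool only. One was Cldn2, the claudin of leaky epithelia, whose signal was -1.15 in WT and 108.0 in the treated pool and 1.21 and 1.65 on the other array, a ratio of at least 2.22-fold. Another was F5, coagulation factor V, with -0.33 and 39.9, at least 1.44-fold. The medians of all 3 choroid plexus lists were above 0 under each of the scalings and backgrounds tried. With median centring, however, the median of the junction, factor and cytoskeleton list was 0.035, level with the 0.0355 of all measured genes. Genes of motile cilia, which choroid plexus and ependyma share, had a median of 0.02 over 23 genes with 0 past 2-fold, which was -0.14 with median centring and -0.0055 with the local background. Foxj1, the master factor of motile cilia, was at -0.12.

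**Figure D2:**
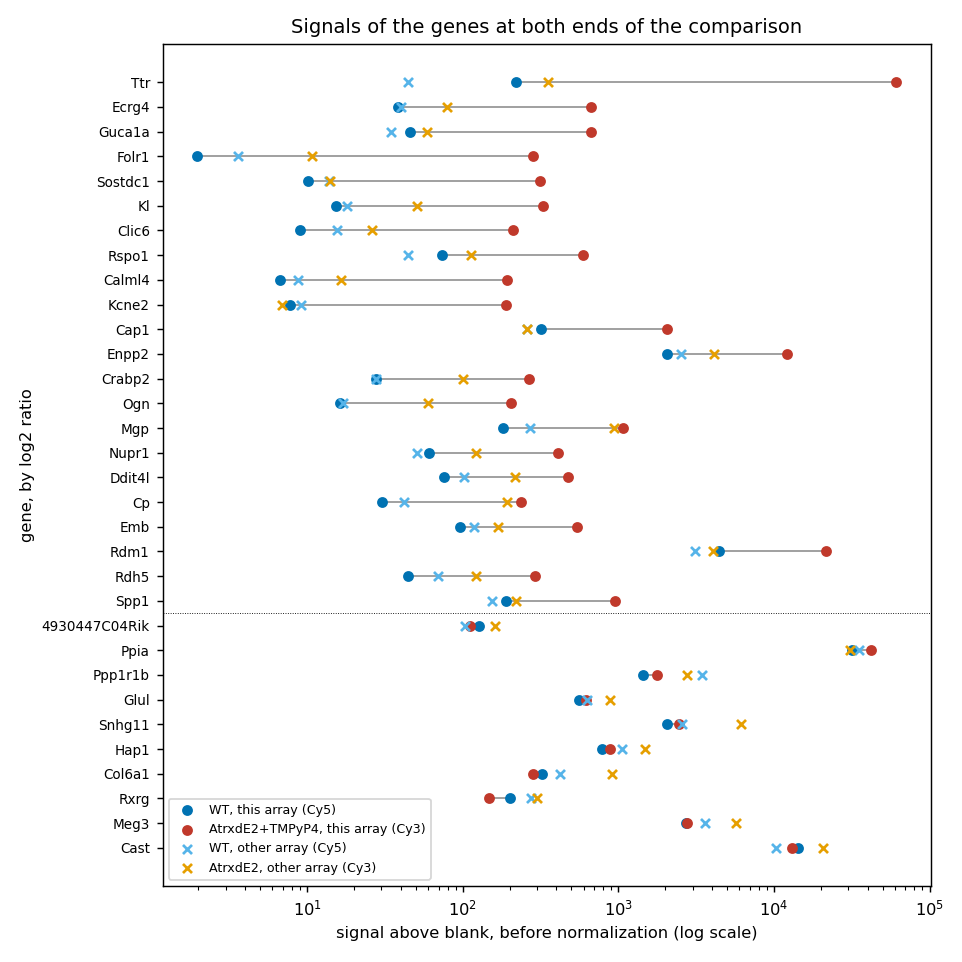
Signal above blank before normalization (horizontal axis, log scale) in each of the 4 channels for the 22 genes at least 2-fold higher and the 10 lowest genes, ordered by log2 ratio. For the upper genes the red points of the treated pool lie to the right, with Ttr at 60791.5, while Mgp and Cp also have a high signal in untreated AtrxdE2 (942.7 and 191.9).

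The meningeal and fibroblast list lay above 0 on both arrays. Of 29 measured genes, 24 were above 0, 5 below 0, 4 past 2-fold higher and 1 past 2-fold lower, with a median of 0.53 (0.35 on the other array). Mgp, matrix Gla protein, had signals of 182.0 in WT and 1073 in the treated pool, with 271.7 and 942.7 on the other array. Its ratio was 1.21 in the treated and 1.02 in the untreated pool. Crabp2, a retinoic acid carrier, was at 1.25 against 0.60, Ogn, the proteoglycan osteoglycin, at 1.23 against 0.43, and Nupr1, a stress-induced nuclear protein gene, at 1.17 against 0.39. The authors' deposited table has 2.11 for Crabp2 and 2.48 for Ogn. With the local background Crabp2 was at 0.22, Ogn at 0.71 and Nupr1 at 0.91, and over the other WT channel Mgp was at 0.90, all under 2-fold. The collagens Col1a2 and Col3a1 were at 0.78 and 0.68 (1.13 for Col3a1 in the authors' deposited table), and Dcn, the proteoglycan decorin, at 0.71. Col6a1 went the other way at -1.13, with signals of 324.8 and 283.8 (424.4 and 914.5 on the other array). The summed signal of the meningeal list was 5376 in WT and 14395 in the treated pool, that of the 3 choroid plexus lists 12358 and 101189 (secretion), 18351 and 31019 (transport) and 310.9 and 1265 (junctions and factors), and that of all measured genes 4658330 and 10642100. These sums are before normalization. The transport sum rose by a smaller factor than that of all measured genes, and Ttr alone gave 60791.5 of the treated secretion sum. In bulk RNA, more cells of a type and more RNA per cell cannot be told apart, and the part of tissue carried over at dissection was not tested. The median of the meningeal list was above 0 under each scaling and background tried.

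The remaining genes past 2-fold shared no single list used here, and which cells express them was not tested. Ecrg4, listed under its clone name 1500015O10Rik, encodes a secreted peptide precursor. It had signals of 38.6 in WT and 670.4 in the treated pool, with 40.0 and 79.4 on the other array, and a ratio of 2.08. Guca1a, a guanylate cyclase activator known from photoreceptors, had signals of 45.6 and 671.5, with 34.7 and 59.1 on the other array, and a ratio of 1.96. Rspo1, a Wnt agonist, was at 1.42 against 0.41 in the untreated pool. Cap1, an actin-regulating protein gene, was at 1.36 against -0.53. Rdm1, a RAD52-motif protein gene, had a high signal in every channel (4423 and 21703, with 3088 and 4071 on the other array) and a ratio of 1.04. Emb, the adhesion protein embigin, was at 1.07, Ddit4l, an inhibitor of mTOR signalling, at 1.14, Rdh5, a retinol dehydrogenase gene, at 1.03 and Spp1, which encodes osteopontin, at 1.01. With the local background Rdm1 was at 0.95, Emb at 0.67, Ddit4l at 0.82, Rdh5 at 0.55 and Spp1 at 0.98, all under 2-fold. Rdh5 was also under 2-fold over the other WT channel, at 0.83. Just inside the threshold stood Spp1 at 1.01, and just outside it Lmbrd2 at 0.98. Of these genes Ddit4l, Rdm1, Emb, Spp1 and Lmbrd2 fall outside the rule for naming genes and were chosen after their values were seen. Of the 22 higher genes, 9 kept the 2-fold call with the local background, 19 over the other WT channel and 22 with median centring. A further 5 probes past 2-fold higher and 9 past 2-fold lower carry no gene name here.

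Only 4 genes were past 2-fold lower, and their signals before normalization were similar in both channels. Cast had signals of 14221 in WT and 13123 in the treated pool, with 10296 and 20753 in WT and untreated AtrxdE2 on the other array. The treated signal was thus above the WT signal of the other array, and the ratio was -1.37 over the WT channel of its own array and -0.72 over the other. Meg3 had signals of 2737 and 2773, with 3614 and 5667 on the other array, and a ratio of -1.18 (-1.36 over the other WT channel). Rxrg had signals of 201.2 and 147.4, with 274.7 and 300.0 on the other array, and a ratio of -1.17 (-1.44). With median centring 3 of the 4 calls were lost, with Cast at -0.85, Meg3 at -0.71 and Col6a1 at -0.87. With each spot's local background in place of the blank level, Meg3 and Rxrg had ratios near 0 (0.00094 and 0.0069). The local background of the WT channel was 2264 and 229.5 there. Just outside the threshold stood Hap1, a huntingtin-associated transport protein gene, at -0.97, the noncoding RNA Snhg11 at -0.94, and Glul, the astrocytic glutamine synthetase gene, at -0.93. Snhg11 was at 0.67 in the untreated pool.

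Striatal genes lay mostly below 0. Of 30 measured genes, 7 were above 0, 23 below 0 and 1 past 2-fold lower, with a median of -0.27 that was -0.05 with the local background. Ppp1r1b, which encodes DARPP-32, the dopamine-regulated phosphatase inhibitor of striatal neurons, had signals of 1445 in WT and 1775 in the treated pool. On the other array its WT signal was 3448, and its ratio moved from -0.89 to -1.90 over that channel. Rgs9, a regulator of G-protein signalling enriched in striatum, moved from -0.76 (-1.16 in the authors' deposited table) to -1.73 in the same way, with WT signals of 135.9 and 329.5. Both striatal genes thus differed between the WT channels by as much as between the WT and treated pools. With the local background Ppp1r1b was at -0.06 and Rgs9 at -0.16. In the untreated pool Ppp1r1b was at -0.90 and Rgs9 at 0.05. The dopamine receptor genes Drd1 and Drd2, chosen after their values were seen, were at -0.60 and -0.50 (-1.03 and -1.27 in the authors' deposited table), but Drd1 was at 0.08 over the other WT channel and Drd2 at 0.14 with the local background. Penk, the enkephalin precursor gene, was at -0.52. Arpp19, a phosphatase regulator gene, was the highest of the list at 0.41.

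**Figure D3:**
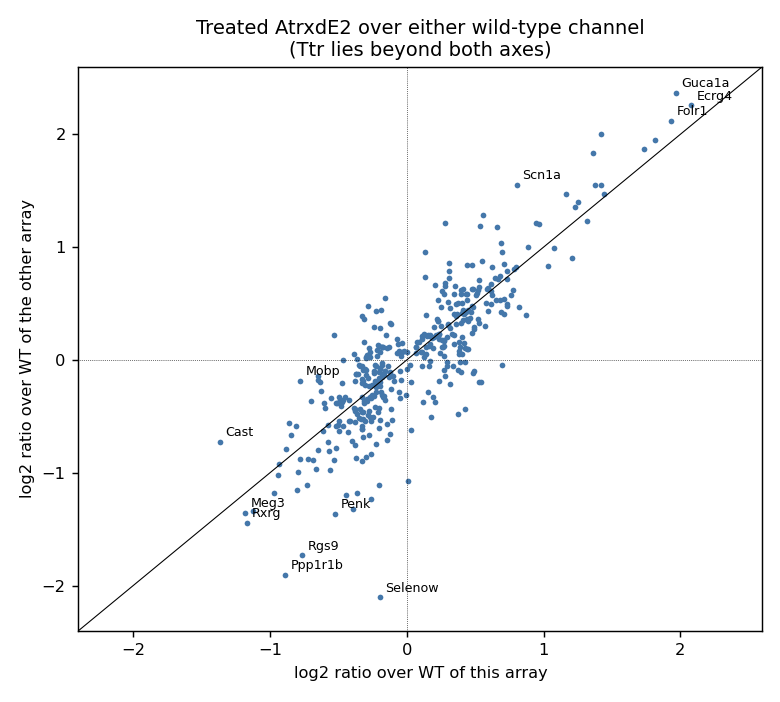
Log2 ratio of treated AtrxdE2 over the WT channel of the other array (vertical axis) against that over the WT channel of its own array (horizontal axis) for 410 named genes that were above background on both arrays. The ratio had the same sign over either WT channel for 338 of them, and Cast (-1.37 and -0.72), Ppp1r1b (-0.89 and -1.90) and Selenow (-0.20 and -2.10, and 0.14 with median centring) lie off the line of equality.

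Myelin genes lay mostly below 0 on both arrays after loess, although the direction of the treated median turned with the scaling. Of 21 measured oligodendrocyte genes, 3 were above 0 and 18 below 0, with a median of -0.27 on the treated and -0.41 on the other array. The treated median was 0.01 when the array was centred on its median without loess. Cnp, a myelin phosphodiesterase gene listed as Cnp1, was at -0.80, with signals of 2378 and 3150. Mobp, a structural myelin gene, was at -0.78 against -0.98 in the untreated pool, but at -0.18 over the other WT channel. Opalin, listed as Tmem10, was at -0.73 but at 0.96 with the local background. Mal was at -0.66, and Mbp, the myelin basic protein gene, was at -0.61 but at 0.04 over the other WT channel. Enpp2, which oligodendrocytes and choroid plexus both express, was the 1 gene of the list past 2-fold higher. Of 16 genes of oligodendrocyte precursors, 12 were below 0, with a median of -0.08, and Bmp4 was the highest at 0.67 (1.15 in the authors' deposited table).

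Neuronal markers of the labelled tissue were above background about as often as any gene on the array (84.5% of named genes). Of the genes with a probe, 11 of 13 CA1 genes, 15 of 18 CA2 and CA3 genes and 19 of 22 dentate granule genes were above background in both channels, among them, chosen after their values were seen, Wfs1 of CA1 (signals of 182.7 and 313.8) and Calb1, the calbindin gene of granule neurons and interneurons (1149 and 2738). The markers of striatum (30 of 31) and of thalamus and habenula (18 of 22) were also above background. CA1 genes had a median of -0.28, with 9 of 11 below 0, that turned to 0.04 with median centring and to 0.08 with the local background. The CA2 and CA3 median was 0.01, with Sostdc1, which this list also holds, past 2-fold, and the dentate median 0.03 (-0.01 with plain subtraction and -0.17 with median centring, respectively). Among interneuron genes, Lamp5, of neurogliaform cells, was at 0.97 with signals of 1050 and 4880 (1025 and 1343 on the other array). Pvalb, of basket cells, was at 0.87 but at 0.40 over the WT channel of the other array. Npy, the neuropeptide Y gene, was at 0.51, and the 24 interneuron genes had a median of -0.02 (0.01 with median centring).

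Genes of neurogenesis and the cell cycle were below 0 in 21 of 30, with a median of -0.12 that kept its sign under each scaling and background tried. Dcx, the doublecortin gene of newborn neurons, was at -0.38 and Aurkb, a mitotic kinase gene, at -0.45, while Neurod1, a factor of granule neuron differentiation, was at 0.48 but at -0.12 over the other WT channel. Microglial genes had a median of -0.07 (14 of 22 below 0), which was 0.20 with median centring. Astrocyte genes had a median of -0.06 (0.26 with median centring), with Glul at -0.93, the metallothionein gene Mt2 at -0.69 and the glutamate transporter gene Slc1a2 at 0.58. Endothelial genes had a median of 0.06 (16 of 22 above 0), and it was -0.03 over the other WT channel. Blood cell genes had a median of -0.14 over 8 genes (0.10 over the other WT channel). None of the genes in these 5 lists was past 2-fold.

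**Figure D4:**
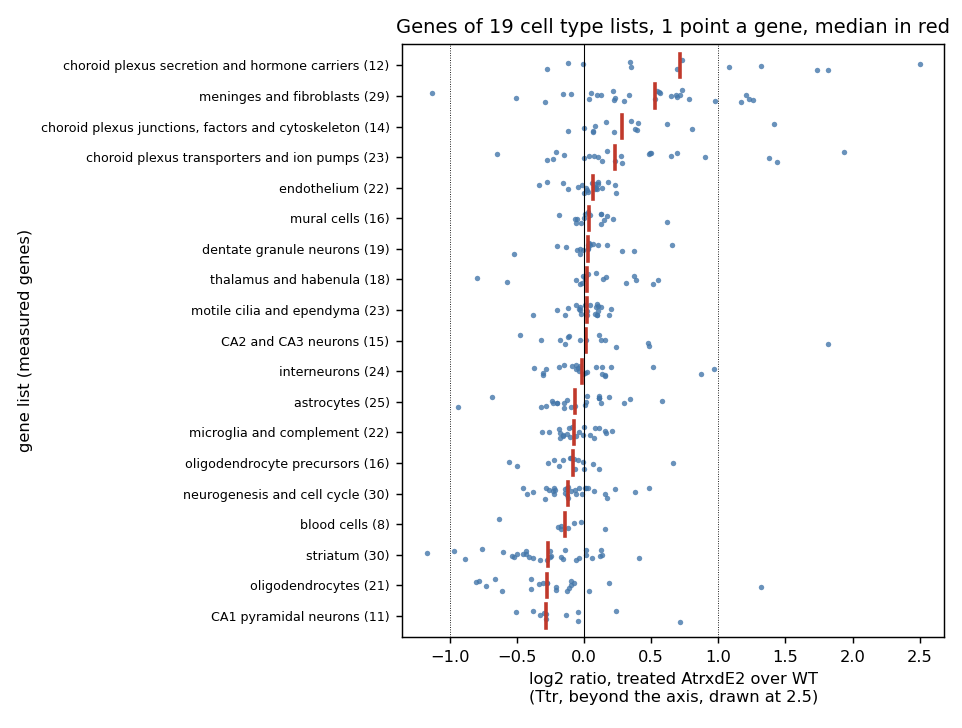
Log2 ratio of treated AtrxdE2 over WT (horizontal axis) for the measured genes of 19 cell type lists, 1 point a gene, with the median of each list in red and dotted lines at 2-fold. The list medians run from 0.71 for secreted proteins of choroid plexus to -0.28 for CA1 pyramidal neurons (0.04 with median centring).

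The pathway lists that bear on a porphyrin drug lay close to 0. Of 35 measured genes of heme, porphyrin and iron handling, 20 were above 0, 15 below 0 and 1 past 2-fold, with a median of 0.02 (-0.01 with the local background). That gene was Cp, which was under 2-fold with the local background (0.45) and over the other WT channel (0.99). Fth1, the ferritin heavy chain gene, was the lowest at -0.81, against -0.58 in the untreated pool. The 36 genes of drug metabolism and transport had a median of 0.08 with 26 above 0 and 0 past 2-fold. Ephx1, an epoxide hydrolase gene, was at 0.78 and Aldh1a1, a retinal dehydrogenase gene, at 0.73, and the cytochrome P450 genes Cyp1b1 and Cyp1a1 at 0.48 and -0.16 (0.55 for Cyp1a1 over the other WT channel). Of 37 genes of DNA damage and p53, 19 were above 0, 18 below 0 and 0 past 2-fold, with a median of 0.0028 (-0.02 with plain subtraction). Pmaip1, a p53 target that promotes cell death, was at 0.44 and Gadd45g, a stress-induced gene, at -0.65. The telomere list had a median of 0.10 with 11 of 19 above 0 and 0 past 2-fold, led by Nhp2 and Dkc1, which encode parts of the telomerase particle, at 0.73 and 0.71.

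Housekeeping lists had medians close to 0 after loess, and larger ones with median centring. Chaperones had a median of 0.11 (32 of 48 above 0), translation factors 0.10 (32 of 48), proteasome and ubiquitin genes 0.08 (30 of 46) and oxidative phosphorylation genes 0.06 (43 of 74). With median centring these 4 medians were 0.42, 0.47, 0.48 and 0.51, where the median of all genes was 0.04. Potassium channels had a median of 0.11, with 30 of 43 above 0. Each of these 5 medians was above 0 under each scaling and background tried, and 0 genes of these lists were past 2-fold. With the local background, however, the potassium channel median was 0.0086, level with the 0.0096 of all measured genes. Cytosolic ribosomal protein genes had a median of -0.05 (30 of 54 below 0), which was 0.37 with median centring. Chromatin remodellers and histone modifiers had a median of -0.05 with 52 of 81 below 0, and it was 0.10 with median centring. Within the chaperones Hspb3, a small heat shock protein gene, was at 0.76 (1.38 in the authors' deposited table) and Ppia, the cyclophilin A gene, at -0.88, but Ppia was at 0.40 with the local background. Eif3e, a translation initiation factor gene, was at 0.71 and Eef1a1, the elongation factor, at -0.70.

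**Figure D5:**
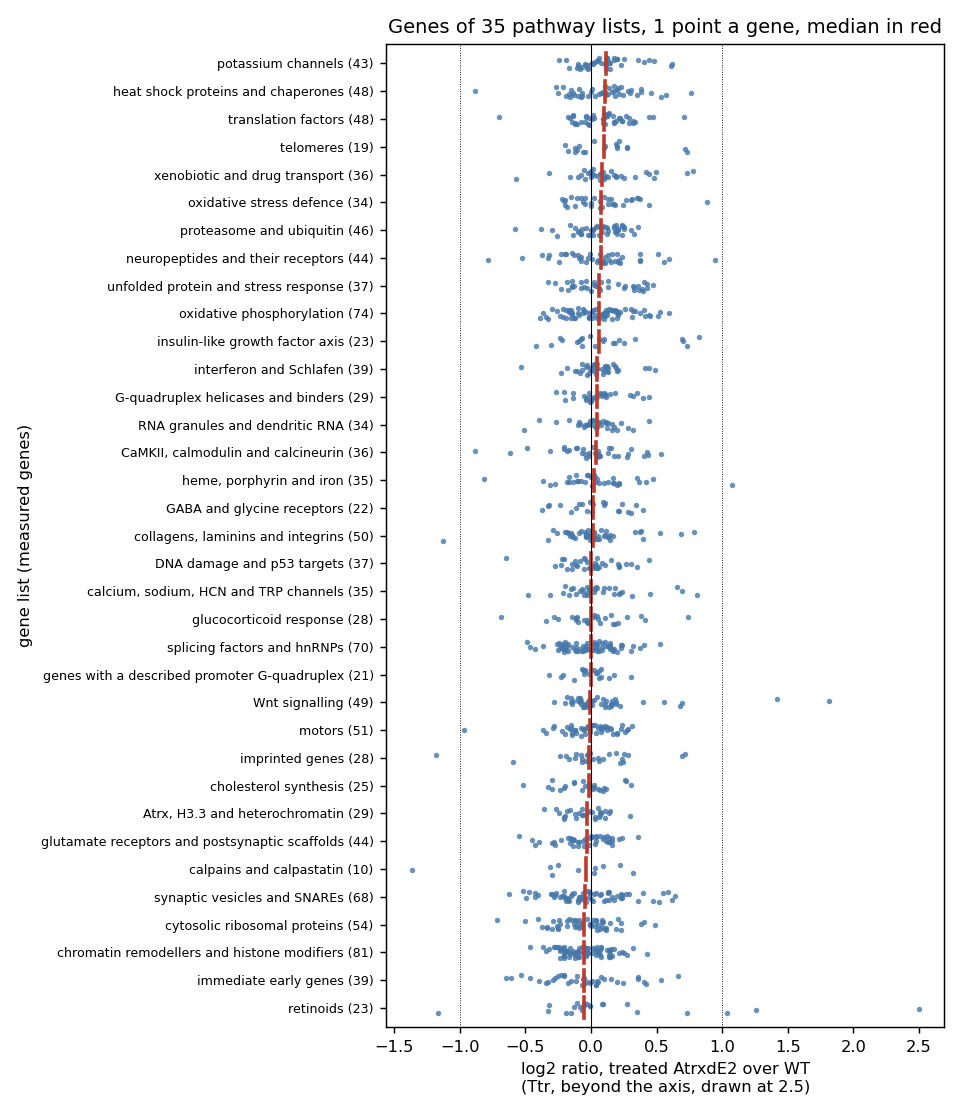
Log2 ratio of treated AtrxdE2 over WT (horizontal axis) for the measured genes of 35 pathway lists, 1 point a gene, with the median of each list in red. The Xlr cluster, with 2 measured genes, is not drawn. Medians of those drawn lie between 0.11 for potassium channels and -0.05 for retinoid genes (0.03 with the local background), and the genes beyond 2-fold are few, such as Rspo1 (1.42) and Meg3 (-1.18).

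Synaptic and signalling lists held single genes near the threshold. Immediate early genes had a median of -0.05 (23 of 39 below 0, 0.07 with median centring), with Egr2 at -0.65 (-1.07 in the authors' deposited table), Fos at -0.61 (0.27 with the local background) and Ier5 at 0.66. Among neuropeptide genes Adcyap1, which encodes the peptide PACAP, was at 0.95 with signals of 137.9 and 677.8, and Grp, the gastrin-releasing peptide gene, at -0.78. Synaptic vesicle genes ranged from Cplx2, a complexin gene, at 0.64 to Bin1, an endocytic adaptor gene, at -0.63, with a median of -0.04 (0.22 with median centring). Scn1a, a sodium channel gene of interneurons, was at 0.81. In the insulin-like growth factor axis Igfbp4, Igfbp2, Igfbp7 and Igf2 were at 0.82, 0.73, 0.70 and 0.69, although Igfbp7 was at -0.04 over the other WT channel, and 0 of 23 were past 2-fold. The retinoid list held 3 genes past 2-fold higher, Ttr, Crabp2 and Rdh5, and Rxrg past 2-fold lower, while its median was -0.05 (0.03 with the local background). Calpains, the proteases that calpastatin inhibits, stood near 0, with Capn2 at 0.32 and Capn5 at -0.30.

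A further 304 genes were above background in the treated pool only and 361 in the WT pool only. Beside Cldn2 and F5, the highest bounds on the treated side were those of Prr32, listed under a clone name, at 2.18-fold (signals of 0.30 and 110.5), Tspan8, a tetraspanin gene, at 1.5-fold, Defb10, a defensin gene, at 1.30-fold and Lepr, the leptin receptor gene, at 1.19-fold. On the WT side the highest bounds were those of Cxcl5, a chemokine gene, at 1.22-fold (12.7 and 3.45) and Tcfl5 at 1.16-fold. Cldn2 and Prr32 were the only genes of either side whose bound reached 2-fold.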

How the data were processed

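The authors deposited, per the file headers, scanner tables that give every spot a median intensity per channel and a local background, and, per the labels, a table of normalized log2 ratios of the AtrxdE2 pools over WT. Each value of that table equalled the log2 ratio of Cy3 over Cy5 with the trimmed blank mean subtracted, minus a constant of 1.17 (within 0.01 for 100.0% of values), and its median is 0.0. The scanner software is not given in the sources used here. From the intensities, background was corrected with normexp (limma 3.58.1, R 4.3.3; offset 50) against the blank mean, trimmed by a share of 0.05 at each end, and loess normalization followed, in which control spots had weight 0. Probes marked bad, or not 2 SD above the blank mean in each channel, were left out, and probes of a gene were averaged. For the ratio over the WT channel of the other array, 1 more step followed loess. The mean signals of both arrays were quantile-normalized against each other (Aquantile in limma). Differences between the WT channels and bounds for genes above background in 1 channel used these values too.

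Of 16446 symbols, 12501 were current in RefSeq (GRCm38.p6), 3883 matched through a synonym and 62 matched none. Scripts were checked on simulated data. Members, gene lists and the rule for naming genes (the 15 highest and 15 lowest, up to 4 at each end of each of 55 lists, 8 a side above background in 1 channel only, the 10 with the largest difference between WT channels, and 7 set genes) were chosen with earlier results of these data known. Counts and list medians stand beside those over all measured genes, no p-value was computed, and the number of arrays limits the precision.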

Additional observations from a re-analysis of the deposited data

Results flagged for a closer look

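Spots outside the gene measurements carried signal. Of 1102 spots that hold no probe, 539 (48.9%) exceeded the blank mean by over 2 SD in the WT channel, with a 95th percentile of 5.00 there and of 9.29 in the treated channel. Of 96 negative control spots, 25 (26.0%) did so in the treated channel and 0 in the WT channel. Of the genes at least 2-fold higher in the authors' deposited table, 142 of 244 had a WT signal at or below that of the 95th percentile of spots without a probe, against 1 of 22 (Folr1) after offset and loess.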

How the results depend on the processing

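The counts of probes past 2-fold depended on background and scale. Beside 27 higher and 13 lower (67.5% of calls higher), the authors' deposited table gave 367 and 144, plain subtraction of the blank level 290 and 177, an offset of 0 115 and 55, and a threshold of 1.5-fold 170 and 105. Median centring in place of loess gave 97 and 1 (99.0% higher), the WT channel of the other array 93 and 189 (33.0% higher), and the local background with normexp, an alternative chosen after seeing the data, 447 higher, with the lower count at 13 (97.2% higher). Under the filters tried (probes above the median signal only, no filter, above background on both arrays) both counts stayed within 1.5 times. Of the 22 higher and 4 lower gene calls, 22 and 1 were kept with median centring, 19 and 3 over the other WT channel and 9 and 2 with the local background, and all of them in the authors' deposited table, with plain subtraction and with an offset of 0. Of 411 named genes, the sign changed in 93, 72 and 62 under the first 3 of these and in 1 or 2 under the last 3, and of 54 list medians it changed in 24, 12 and 17, and in 8, 4 and 3. Meg3 (0.00094) and Rxrg (0.0069) turned from past 2-fold lower to just above 0 with the local background; the local background exceeded the spot in 22.9% of probes of the WT channel. No paired analysis was possible because the labels carry no replicate numbers and each group is 1 array.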
